A study of Mus musculus with 4 samples.

Results

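Narrow H3K27ac peaks that lie deep inside very long genes were followed in cultured Th17 cells of the mouse, a helper T cell state that makes IL-17. Acetylation of lysine 27 of histone H3 is laid down by the acetyltransferases p300 and CBP at active promoters and enhancers, and peaks far from any start inside a gene are usually read as candidate enhancers in introns. Very long genes are mostly intron, and many of the longest in mammals encode adhesion molecules, receptors and channels of neurons, while a smaller number encode regulators of lymphocytes. The inner peaks were chosen by their measured positions and widths alone: an inner peak is a peak under 3000 bp wide that lies fully inside a protein-coding gene of 300 kb or longer and over 1 kb from both annotated ends of it (GRCm38, RefSeq). Of 56285 peaks in the list, 2731 were inner peaks, or 4.85% of the 56284 on chromosomes 1 to 19 and X, and 557 of 21631 protein-coding genes (2.58%) were long enough to hold one.

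Naive CD4+ T cells of C57BL/6 mice had been driven toward Th17 for 72 h by IL-6 (20 ng/mL) and TGF-β (0.1 ng/mL), with anti-CD28 (1 µg/mL) and anti-CD3ε (0.25 µg/mL) to stimulate the T cell receptor; the growth notes give TGF-β as a range that begins at this dose. There were 2 H3K27ac libraries and 2 input DNA libraries, numbered 1 and 2 in each kind, all of the same strain and treatment, and the labels do not say whether the numbers are separate mice or cultures. No other cell type or condition stands beside the Th17 cells. The processed data are 1 list of peak positions with no height, score or value per library, so no value below has a replicate error, the sequencing depth is unknown, and no test between groups of genes was made. All 10 marker genes of Th17 and T cells that were checked, among them Il17a, Il23r and Cd3e, had a peak within 1 kb of a gene end. Such a peak was found at 1 of 6 B cell markers (Cd79a), 1 of 6 myeloid markers (Cd14) and 53.8% of all protein-coding genes.

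Starts that lie deep inside long genes are shown first, because an inner peak can sit on a second start of its host gene. RefSeq start windows of GRCm38.p6 (300 bases, from 250 before to 50 after a start) were listed for 425 of the 557 long genes, with 639 starts in all. An inner peak covered 34 of these starts, in 32 genes, and 23 of the 34 lay over 20 kb from the gene's annotated start. Peaks of 3000 bp or wider inside the genes covered a further 8 starts in 5 genes. Windows are printed 5′ to 3′ on the gene's strand, with each CpG in capitals, to show how different such starts can be. Celf2 (chr2:6871986-6872285, minus strand) encodes an RNA-binding splicing regulator, and a start 524 kb from the annotated start of the gene lay under an inner peak of 1413 bp. Bach2 (chr4:32417185-32417484, plus strand) encodes a transcriptional repressor that holds back effector differentiation of lymphocytes, and its start at 179 kb from there lay under a peak of 360 bp. Tiam1 (chr16:89974650-89974949, minus strand) encodes an exchange factor of the GTPase Rac, and its start at 171 kb from there lay under a peak of 313 bp. Hdac9 (chr12:34528840-34529139, minus strand) encodes a class IIa histone deacetylase, and its start at 388 kb from there lay under a peak of 1051 bp. Foxp1 (chr6:99266466-99266765, minus strand) encodes a forkhead factor that keeps naive T cells quiescent, and its start at 256 kb from there lay under a peak of 9850 bp, too wide to be an inner peak. Rora (chr9:68653536-68653835, plus strand) encodes the nuclear receptor RORα, which takes part in the Th17 program, and the 1 start listed for it had no peak within 1 kb. These examples were chosen after their values were seen.
Celf2: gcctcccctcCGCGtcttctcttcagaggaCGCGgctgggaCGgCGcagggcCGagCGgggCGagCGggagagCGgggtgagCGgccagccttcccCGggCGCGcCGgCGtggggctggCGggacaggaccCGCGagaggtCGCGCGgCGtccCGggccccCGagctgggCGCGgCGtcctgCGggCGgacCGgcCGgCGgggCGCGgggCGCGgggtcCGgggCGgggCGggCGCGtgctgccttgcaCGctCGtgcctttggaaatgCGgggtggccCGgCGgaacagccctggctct
Bach2: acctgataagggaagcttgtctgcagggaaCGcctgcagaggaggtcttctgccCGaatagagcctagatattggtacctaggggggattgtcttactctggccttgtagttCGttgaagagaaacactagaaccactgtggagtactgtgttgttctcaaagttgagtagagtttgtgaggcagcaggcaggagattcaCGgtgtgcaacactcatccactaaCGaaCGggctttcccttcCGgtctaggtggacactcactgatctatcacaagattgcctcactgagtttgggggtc
Tiam1: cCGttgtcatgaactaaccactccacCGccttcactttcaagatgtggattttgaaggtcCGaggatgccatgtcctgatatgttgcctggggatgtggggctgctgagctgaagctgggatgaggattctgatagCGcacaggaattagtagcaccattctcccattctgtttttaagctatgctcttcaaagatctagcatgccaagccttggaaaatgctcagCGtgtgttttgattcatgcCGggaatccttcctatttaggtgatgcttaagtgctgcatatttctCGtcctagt
Hdac9: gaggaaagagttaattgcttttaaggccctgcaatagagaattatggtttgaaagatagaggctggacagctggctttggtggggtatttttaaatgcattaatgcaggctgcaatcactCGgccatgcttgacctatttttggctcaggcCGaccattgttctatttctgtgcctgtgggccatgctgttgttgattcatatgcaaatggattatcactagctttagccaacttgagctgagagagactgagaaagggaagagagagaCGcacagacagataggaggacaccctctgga
Foxp1: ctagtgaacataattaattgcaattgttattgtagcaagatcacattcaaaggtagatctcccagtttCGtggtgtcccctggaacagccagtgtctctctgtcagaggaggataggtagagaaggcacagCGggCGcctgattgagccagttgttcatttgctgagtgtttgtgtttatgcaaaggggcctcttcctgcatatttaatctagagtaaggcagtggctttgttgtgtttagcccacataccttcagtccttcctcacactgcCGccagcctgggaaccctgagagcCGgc
Rora: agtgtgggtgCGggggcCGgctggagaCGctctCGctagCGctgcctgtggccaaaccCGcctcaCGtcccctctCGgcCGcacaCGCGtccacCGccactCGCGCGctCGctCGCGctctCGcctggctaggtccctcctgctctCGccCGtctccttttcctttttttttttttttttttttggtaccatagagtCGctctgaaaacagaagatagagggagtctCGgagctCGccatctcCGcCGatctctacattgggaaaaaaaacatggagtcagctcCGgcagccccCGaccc
The windows hold 48 CpG in Celf2, 7 in Bach2, 7 in Tiam1, 3 in Hdac9 and 5 in Foxp1, against 28 in the Rora window that had no peak.

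Over all listed starts of the long genes, the 178 with a peak within 1 kb had a median of 23.5 CpG per window (quartiles 14 and 36.75), against 9 (4 and 19) in the 461 without, and the median over 21045 starts of all protein-coding genes was 13. Starts of 1 gene can overlap in sequence. The letters TGANTCA, which AP-1 and BATF complexes can bind, were found on either strand in 7.94% of 126 windows of genes with at least 10 inner peaks, 6.55% of 229 windows of genes with 1 to 9 and 4.23% of 284 windows of genes with none, and in 7.04% of the windows of all protein-coding genes. The letters AGGTCA, the core that ROR receptors can bind, were found in 19.05%, 13.1% and 10.2% of the windows of the same groups, and in 14.6% of all windows. Behind these shares stand 10, 15 and 12 windows with TGANTCA and 24, 30 and 29 with AGGTCA. Split by a peak within 1 kb of the start, the shares were close. TGANTCA was in 5.62% of the 178 windows with a peak and 5.86% of the 461 without, and AGGTCA in 13.5% and 12.8%. The motifs were searched in the start windows alone, since no genome sequence was used here, and a match is a description and not a binding site.

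The inner peaks were gathered in few of the long genes. Of the 557 long genes, 283 (50.8%) held at least 1 inner peak and 274 (49.2%) held none. By the same criteria 65.3% of genes of 100 to 300 kb and 35.1% of all protein-coding genes over 2 kb held at least 1 peak. The median long gene held 1 inner peak, the upper quartile was 5 and the highest count was 91. At least 10 inner peaks were found in 91 long genes (16.3%), against 14.0% of genes of 100 to 300 kb and 2.75% of all protein-coding genes over 2 kb. These 91 genes held 2089 of the inner peaks (76.5%). The 10 genes with most held 586 (21.5%) on 1.74% of the summed length of the long genes, and the 50 with most held 1585 (58.0%) on 8.28% of it. Exactly 1 inner peak was held by 58 genes. In 246 of the 274 genes with no inner peak, no peak of any width was found inside the gene or within 1 kb of its ends.

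The count did not grow with gene length: genes held a mean of 5.41 inner peaks at 300 to 400 kb, 4.62 at 400 to 500 kb, 5.54 at 500 to 750 kb, 5.94 at 750 to 1000 kb and 1.92 at 1000 kb and longer. Long genes held 0.865 inner peaks per 100 kb when all were pooled, against 2.68 per 100 kb in genes of 100 to 300 kb and 3.58 per 100 kb in genes of 30 to 100 kb. Within the long genes the pooled density was 1.58 per 100 kb at 300 to 400 kb, 1.05 at 400 to 500 kb, 0.936 at 500 to 750 kb, 0.690 at 750 to 1000 kb and 0.143 at 1000 kb and longer. The share with no inner peak was 44.4% of 205 genes in the shortest of these classes and 67.8% of 59 genes in the longest. Of the 59 longest, 4 held at least 10. Across the 557 genes Spearman's rho between length and count was -0.108, given as a description. Genes differ in make-up between these classes, so length and kind of gene cannot be told apart here.

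**Figure D1:**
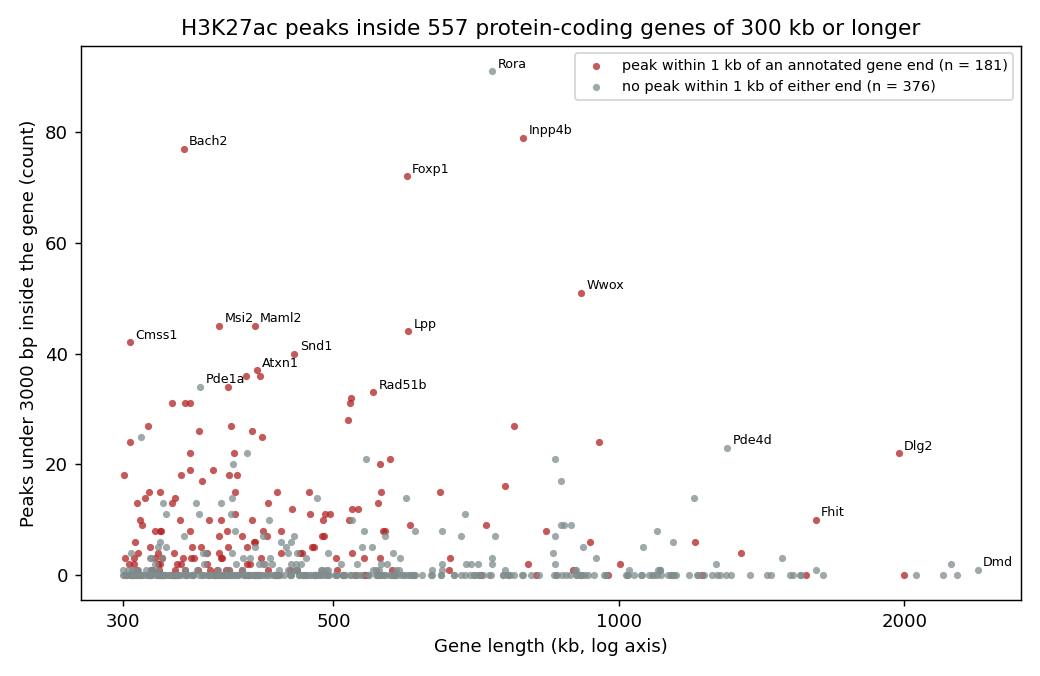
Inner peaks per long gene (vertical axis, count) against gene length (horizontal axis, kb, log axis), 1 point per gene, red for the 181 genes with a peak within 1 kb of an annotated end and grey for the 376 without. Rora (91), Inpp4b (79), Bach2 (77) and Foxp1 (72) stand at the top, and Rora is the 1 of these 4 drawn in grey.

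Most inner peaks lay far from any listed start. Among 2327 pairs of an inner peak and a host gene with listed starts, the median distance from the middle of the peak to the nearest start of that gene was 142 kb. In 1815 pairs (78.0%) this distance was over 50 kb and in 1429 pairs (61.4%) over 100 kb. Only genes of 300 kb or longer were taken and few starts are listed per gene. Large distances therefore follow in part from the definition. Each gene with a listed strand was cut into 4 segments of equal length, numbered from its annotated start, and segments 1 to 4 held 24.0%, 25.1%, 22.0% and 28.9% of the inner peaks. In 60 of the 226 such genes with any inner peak, 50% or more of them lay in segment 1.

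Lymphocyte transcription factors held 3 of the 4 highest counts in the list as deposited, but 1 of the 4 once peaks at most 1000 bp apart were merged, and 2 of the 4 when the merged peaks had no upper width. On a list of 33 such genes, 9 are 300 kb or longer. The list was chosen with earlier results of these data known, so its shares are descriptions. All 9 held inner peaks and 8 held at least 10, against 50.8% and 16.3% of all 557 long genes. Their medians were 27 inner peaks and 7.92 per 100 kb, against 1 and 0.0906 per 100 kb over all 557. All 9 still held inner peaks after either merging, and 6 held at least 10, with medians of 3.09 per 100 kb after the plain merging and 4.78 with no upper width. Rora (chromosome 9, 68653404 to 69388246) held 91 inner peaks, or 12.4 per 100 kb. The first lay 231 kb from the annotated start and none lay in segment 1, while 37 lay in segment 3 and 35 in segment 4. Its inner peaks ranged from 100 to 2947 bp in width, 24 of them under 200 bp, and 10 wider peaks of up to 22.1 kb lay among them. All peaks inside Rora together covered 154 kb, or 21.1% of the gene less 1 kb at each end.

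Bach2 (chromosome 4, 32238413 to 32586109) was the densest in the list as deposited, with 77 inner peaks or 22.3 per 100 kb. Merging peaks at most 1000 bp apart left 12, or 3.47 per 100 kb and rank 14 by density, behind Msi2 at 6.10. With no upper width on the merged peaks it held 24, or 6.94 per 100 kb and rank 3, behind Cmss1 at 7.26. It held 14 wider peaks besides, which covered 149 kb, against 48.9 kb in its inner peaks, and together they covered 198 kb, or 57.2% of the gene counted in the same way, the highest length and share inside any of the 557 genes. Segment 4 held none of the wider peaks and 31 of the 77 inner peaks, and segment 1 held 7. Foxp1 (chromosome 6, 98925342 to 99522746) held 72 inner peaks, 12.1 per 100 kb, with 24 in each of segments 1 and 2 and 12 in each of segments 3 and 4. Runx2, a RUNX factor best known from bone, held 27 (8.52 per 100 kb), Ebf1, the early B cell factor, held 27 (6.96 per 100 kb), and Tox, an HMG-box factor of T cell development and exhaustion, held 24 (7.92 per 100 kb). In Ebf1, 18 of the 27 lay within 1 window of 50 kb. Zbtb20 held 16, 13 of them within 50 kb of an end, Tcf4 held 10 and Aff3 held 7. These 6 factors were named after their values were seen, since they complete the list.

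**Figure D2:**
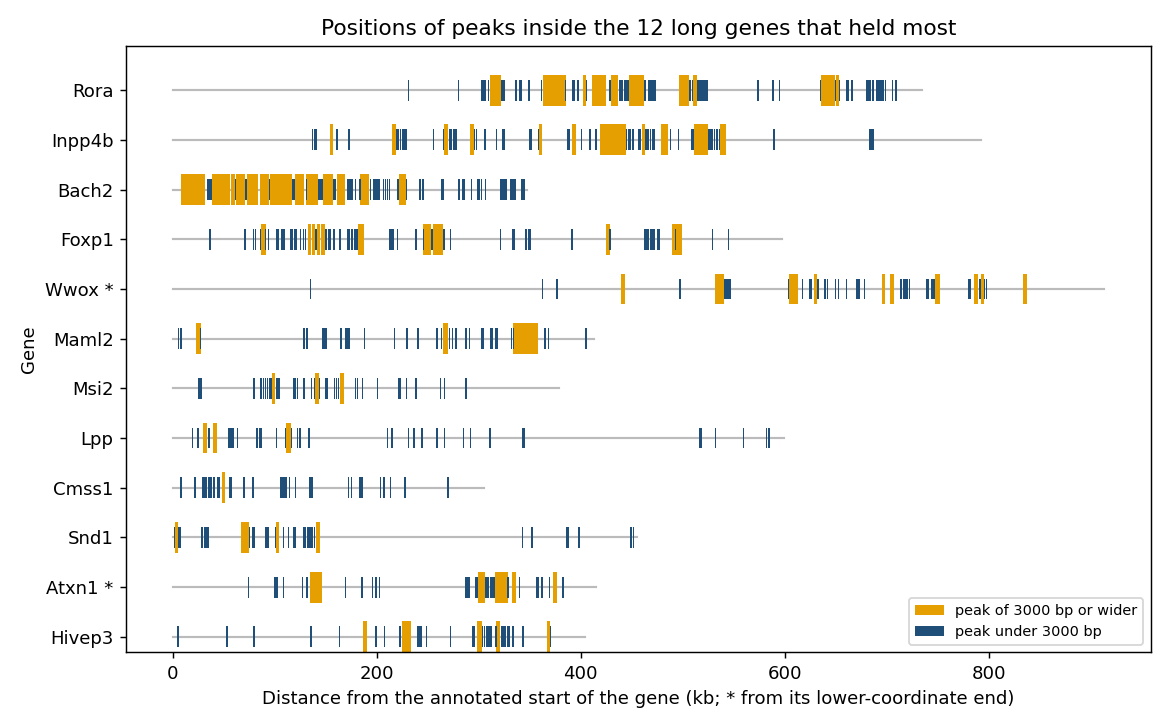
Inner peaks (blue, under 3000 bp) and wider peaks (orange) along the 12 long genes with most inner peaks, by distance from the annotated start (horizontal axis, kb), or from the lower-coordinate end for genes marked with an asterisk, whose strand was not listed; peaks are drawn at least 1.2 kb wide. Rora has no peak drawn in its first 231 kb, Inpp4b none in its first 137 kb and last 105 kb, and segment 4 of Bach2 holds no wider peak. Peaks that reach within 1 kb of a gene end are not drawn. Inpp4b had such a peak and Rora did not.

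Signalling genes came next by median density. Of 42 long genes on a list of lymphocyte and general signalling genes, 34 held inner peaks and 20 held at least 10, with a median density of 1.44 per 100 kb. The shares over all long genes were 50.8% with inner peaks and 16.3% with at least 10. Some genes of this list, such as Exoc4 and Diaph2, are also on the housekeeping list below. Inpp4b (chromosome 8, 81342266 to 82134312), which encodes a phosphatase of phosphoinositide lipids that dampens Akt signalling, held 79 inner peaks, 9.999 per 100 kb. None lay within 50 kb of either end: the first was 137 kb from the start, the last 105 kb from the finish, and segments 2 and 3 held 29 and 36 of the 79. It held 13 wider peaks besides. Itpr1, which encodes the inositol trisphosphate receptor that releases calcium from the endoplasmic reticulum, held 31 inner peaks (9.23 per 100 kb) and 8 wider ones, the widest of 27.2 kb (chromosome 6, 108520446 to 108547640), which is the widest peak inside any long gene. Pde4b, a phosphodiesterase that degrades cAMP, held 31, of which 21 lay in segment 4. There 2 of its 4 listed inner starts lay under wider peaks, of 10135 and 6232 bp. Elmo1, the partner of Dock2 in Rac activation and lymphocyte migration, held 28, of which 19 lay in segment 1 and none in segment 4, and was named after its values were seen. The list is loose and also holds genes that are not signalling genes in the narrow sense. Of these, Msi2, which encodes an RNA-binding protein, held 45 (11.9 per 100 kb), and Lpp, which encodes a LIM protein of focal adhesions and borders Bcl6, held 44 (7.37 per 100 kb), 21 of them in segment 1.

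Regulators of broad use were mixed. Of 33 long genes on a list of transcription and chromatin regulators of broad or developmental use, 25 held inner peaks and 11 held at least 10. Their median density was 0.870 per 100 kb. Among all long genes 50.8% held inner peaks and 16.3% held at least 10. Maml2 and Maml3, which encode coactivators of Notch, held 45 and 36 inner peaks (10.9 and 8.65 per 100 kb). In Maml3, 19 of the 36 lay in segment 4, at the end away from its neighbour Foxo1. Maml2 also held a wider peak of 23.8 kb in segment 4. Hivep3, a large zinc finger protein, held 36, 20 of them within 1 window of 50 kb. Npas3, Esrrg and Mecom, factors of brain, metabolic and stem cell programs, were the longest on the list with none.

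Long genes on a list of housekeeping or widely expressed genes also held many. This list is loose too, and breadth of expression was not measured here. Of its 50 long genes, 38 held inner peaks and 18 held at least 10, with a median density of 1.00 per 100 kb. For all long genes these shares were 50.8% and 16.3%. Wwox (chromosome 8, 114439635 to 115352712), an oxidoreductase gene that in human lies at a common fragile site, held 51 inner peaks and 11 wider peaks. No inner peak lay within 50 kb of its ends, and their median position was 642 kb from the lower-coordinate end, toward the neighbouring gene Maf. Snd1, which encodes a nuclease-domain RNA-binding protein, held 40, none in segment 3. Atxn1, which encodes the repressor ataxin-1, held 37. Rad51b, which takes part in homologous recombination and borders Zfp36l1, held 33. Macrod2 (1998 kb) and Rbms3 (1057 kb) were among the longest on this list with none, and Macrod2 nevertheless had a peak at a gene end.

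On the lists of neuronal adhesion genes and of channel genes, more long genes held no inner peak than held any. Of 122 long genes listed for neuronal adhesion and synapse assembly, 35 held inner peaks, 87 held none and 4 held at least 10. Of 48 ion channel and neurotransmitter receptor genes, 19 held inner peaks, 29 held none and 1 held at least 10. The median density was 0 per 100 kb in both lists. Over all long genes 49.2% held none and 16.3% held at least 10. The adhesion list had a median length of 801 kb. Among long genes of 750 to 1000 kb and of 1000 kb and longer, 56.9% and 67.8% held none. The lists were not matched for length. A peak within 1 kb of an annotated end, called a gene-end peak below, was found at 7 of the 122 and 8 of the 48, against 32.5% of all long genes and 53.8% of all protein-coding genes. Ptprd (2271 kb), Lsamp (2197 kb) and Lrp1b (2058 kb) were the longest with none, and others among the longest were Macrod2, Csmd1, Ctnna3, Robo2, Pcdh15, Rbfox1, Dpp10, Gpc5, Il1rapl1, Lrrc4c and Tenm3, of 1297 to 1998 kb. Several of these, such as Lsamp, Robo2 and Tenm3, encode adhesion molecules or guidance receptors of neurons. Dlg2, a scaffold of the postsynaptic density, was an exception with 22 inner peaks, all in segment 4, after 1629 kb with none. The adhesion list is loose: it shares Sgcd with the muscle list below and holds Celf2, the splicing regulator named above. Celf2 held 21, of which 19 lay in segment 4, where another listed start lay under a peak of 4979 bp. The ion channel list was led by Slc9a9, a sodium-proton exchanger of endosomes, with 15.

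In median density, muscle and cytoskeletal genes lay between the neuronal adhesion and channel lists and the housekeeping list. Of 28, 18 held inner peaks and 7 held at least 10, with a median density of 0.324 per 100 kb. Over all long genes 50.8% held inner peaks, 16.3% held at least 10 and the median density was 0.0906 per 100 kb. Nebl, which encodes the actin-binding protein nebulette, held 20, Myo16 held 14 and Macf1, which links actin to microtubules, held 13. Sgcd (1018 kb) and Ank2 were among the longest with none. Dmd, the dystrophin gene and the longest protein-coding gene of the annotation used (2390 kb), held 1. Some genes are on more than 1 list. Of the 232 long genes on none of the lists, 110 held inner peaks and 23 held at least 10, among them Sh3kbp1, the gene of an adaptor protein, with 31.

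**Figure D3:**
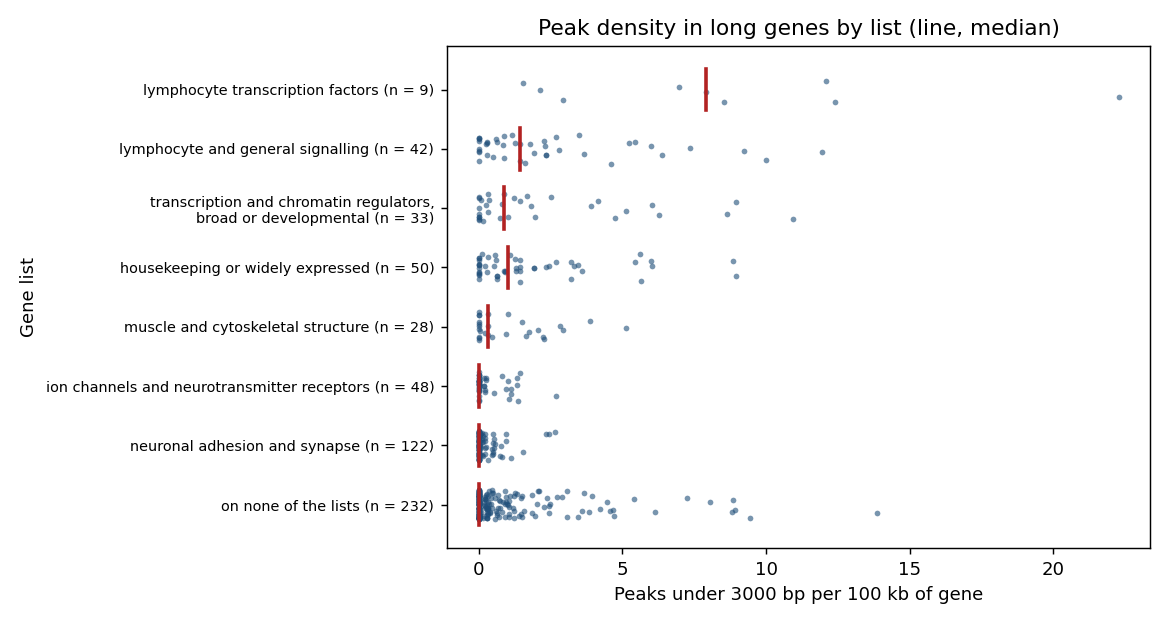
Inner peaks per 100 kb of gene (horizontal axis) for each long gene, by gene list (vertical axis); points are genes, spread vertically for legibility, and the red line is the list's median. The lymphocyte transcription factors have a median of 7.92, and the median is 0 for ion channels, for neuronal adhesion genes and for genes on none of the lists. The lists were chosen with earlier results of these data known.

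Close relatives among the long genes differed. Foxp1 held 72 inner peaks and its paralogue Foxp2, known for its role in neural circuits of vocal learning, held none, although Foxp2 had a peak at a gene end. In the inositol trisphosphate and ryanodine receptor group, Itpr1 held 31 and Itpr2 held 11, whereas the muscle and brain channel genes Ryr2 and Ryr3 held 1 each. Dock2, the Rac activator of lymphocytes, held 13, Dock4 held 1, and Dock1 and Dock3 held none. Among receptor tyrosine phosphatases, Ptprk held 12 and Ptprm 11, and Ptprd, Ptprg, Ptprn2 and Ptprt held none. Utrn, the gene of utrophin, held 10 (2.06 per 100 kb), against 1 in Dmd (0.0419 per 100 kb) and none in Dtna. The protein kinase C genes were alike in holding several, with 26 in Prkca, 18 in Prkcb and 11 in Prkce. Pde4b held 31 (5.99 per 100 kb) and Pde4d 23 (1.77 per 100 kb), and 17 of those in Pde4d lay in segment 4. Csmd1, Csmd2 and Csmd3 all held none, and so did Tenm2 and Tenm3, while Tenm4 held 7 and Tenm1 held 1. Magi2 held 3 and Magi1 none, and Ank3 held 1 and Ank2 none. The catenins were grouped by name and are not all close relatives: Ctnnd2 held 7, and Ctnna2 and Ctnna3 held none.

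**Figure D4:**
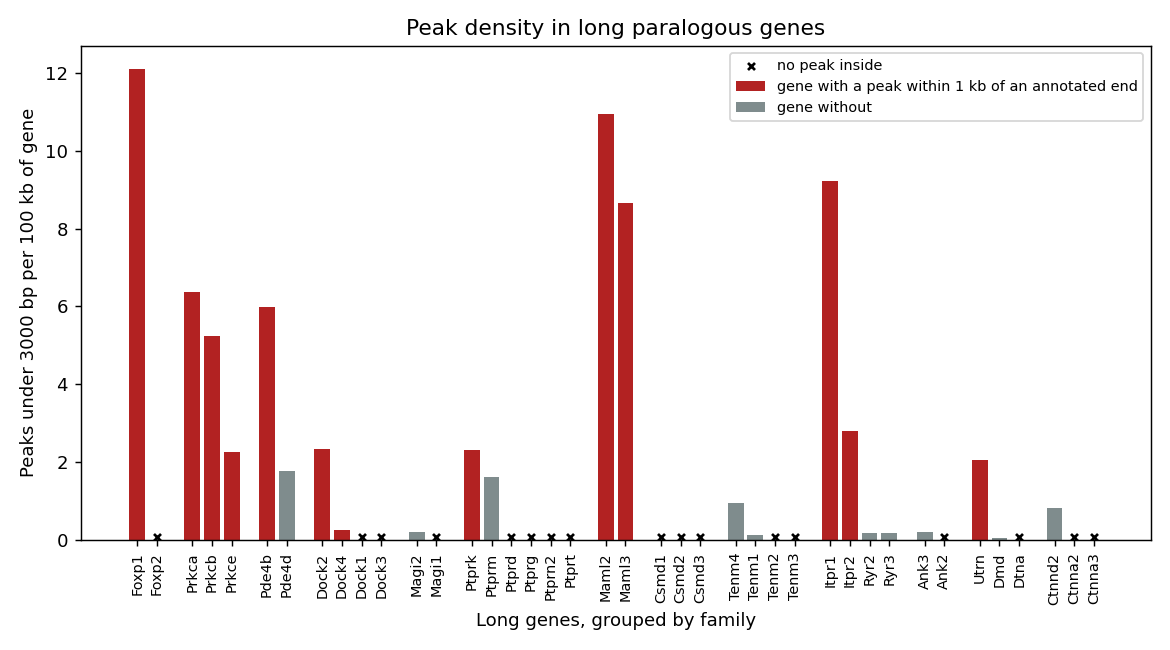
Inner peaks per 100 kb (vertical axis) for long genes of families with at least 2 long members (horizontal axis), with red bars for genes with a peak within 1 kb of an annotated end and grey bars for genes without; crosses mark genes with no inner peak, whatever their ends. Foxp1 stands at 12.1 beside Foxp2 at 0, and Itpr1 at 9.23 beside Ryr2 at 0.181. The catenins are grouped by name and are not all close relatives.

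Inner peaks were found in a larger share of the long genes that had a gene-end peak, and Rora, with most inner peaks, had no gene-end peak. Of 181 long genes with a gene-end peak, 153 (84.5%, exact 95% interval 78.4 to 89.5%) held inner peaks, against 130 of 376 without a gene-end peak (34.6%, 29.8 to 39.6%). At least 10 inner peaks were found in 69 of the 181 (38.1%, 31.0 to 45.6%) and in 22 of the 376 (5.85%, 3.70 to 8.72%). The median was 6 inner peaks with a gene-end peak and 0 without. The intervals are Clopper-Pearson, treat genes as independent, and say nothing of sequencing error. Both measures come from the same list, and no test was made. With strand known, 139 genes had a peak at the annotated start, and 121 of these (87.1%) held inner peaks. In 24 genes the outer start had no peak and an inner start had one, and all 24 held inner peaks; a peak at an inner start can itself be an inner peak, so the count is not independent of that choice. The genes with most inner peaks but no gene-end peak were Rora (91), Pde1a (34), a phosphodiesterase activated by calmodulin, Med12l (25), Pde4d (23) and Pcca (22). The reverse was found in 28 genes with a gene-end peak and no inner peak, the longest being Macrod2 and Ctnna3. These names were chosen after their values were seen.

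Other genes lie inside or beside the long ones. Another protein-coding gene was touched, or lay within 1 kb, for 100 of the 2731 inner peaks (3.66%), and a non-coding gene or pseudogene was touched for 192 (7.03%). In Cmss1, which had the second highest density (13.9 per 100 kb), 34 of the 42 inner peaks lay in or beside Filip1l, a coding gene nested in it, and 8 remained without them. Of the other 19 genes with most inner peaks, Snd1 had 1 such peak, beside Lrrc4, and the remaining 18 had none. Babam2, which encodes a subunit of the BRCA1-A complex, held 34, of which 15 lay within 50 kb of an end. Atrnl1 held 32, and Vwa8 held 31, level with Itpr1, Pde4b and Sh3kbp1. Gene annotations that overlap counted a peak for each: 9 inner peaks lay in all of Gm37013, Gm38666 and Gm38667, and 2 lay in both Iqschfp and Schip1.

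The inner peaks were close in width to narrow peaks inside shorter genes. The median inner peak spanned 424 bp (quartiles, 218.5 and 909.5 bp) and the median was 406 bp (210 and 868 bp) in the 22127 peaks under 3000 bp inside shorter protein-coding genes only, and 655 bp (279 and 1451.5 bp) in the 27059 inside no protein-coding gene by the same 1 kb margin, which include peaks at gene ends. The median was 374 bp in the 10 genes with most inner peaks and 434 bp in the other long genes. Under 500 bp were 56.1% of the inner peaks and 57.6% of those in shorter genes. Width under 3000 bp was part of the definition, so these values are descriptions.

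**Figure D5:**
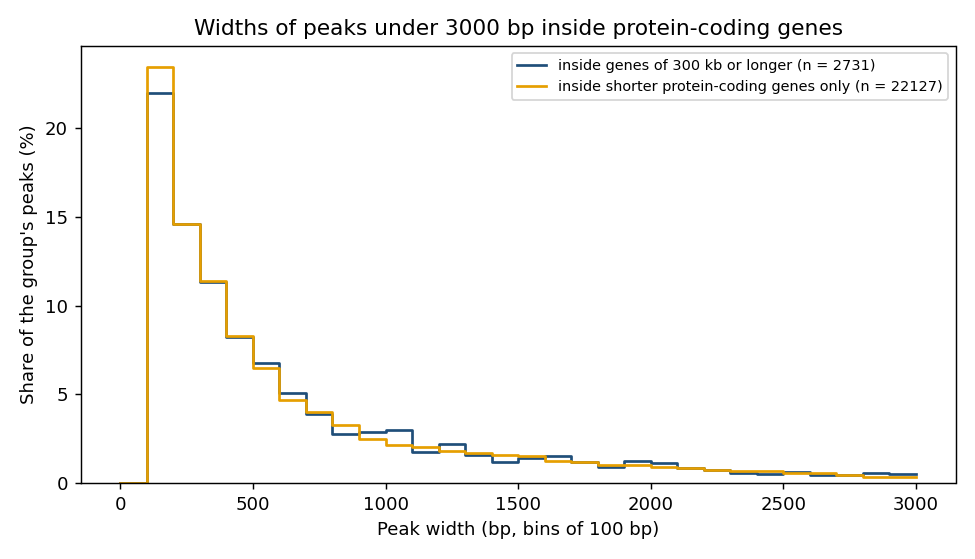
Share of peaks (vertical axis, %) by width (horizontal axis, bp, bins of 100 bp) for the 2731 inner peaks (blue) and 22127 peaks under 3000 bp inside shorter protein-coding genes only (orange). The curves lie close to each other, with medians of 424 and 406 bp.

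The inner peaks came in clusters. Neighbouring inner peaks of 1 gene were a median of 3012 bp apart, 988 of 2468 gaps (40.03%) were at most 1000 bp and 279 (11.3%) were over 50 kb. Merging peaks at most 1000 bp apart left 26 in Foxp1, 25 in Lpp, 23 in Msi2 and 22 in Maml3, and 21 in Rora, 21 in Inpp4b and 12 in Bach2. Merging with no upper width left 38 in Foxp1, 36 in Inpp4b, 35 in Rora, 29 in Lpp, 29 in Wwox and 24 in Bach2; this setting was chosen after the data were seen. With peaks of at least 500 bp, Inpp4b held 33, Bach2 32, Rora 31 and Foxp1 28. Which genes hold most, and in what order, therefore depends on how finely the list is split.

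The limits of the definition cut through similar peaks and genes. The widest inner peaks were 2997 bp in Med12l, 2988 bp in Inpp4b and 2982 bp in Tox, and the narrowest left out were 3002 bp in Gse1, 3005 bp in Inpp4b and 3010 bp in Foxp1. In all, 226 peaks of 3000 bp or wider lay inside 78 long genes, and no gene without an inner peak held one of them. Just over the length limit stood Zfp423 (300.2 kb, 1 inner peak), Kcnq3 (300.3 kb, none) and Jazf1 (300.6 kb, 18), and just under it Akap13 (299.1 kb), which held 34 such peaks, Atp2b2 (298.8 kb, none) and AW554918 (298.6 kb, 2).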

How the data were processed

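The authors deposited 1 list of H3K27ac peaks with chromosome, start, end and a name, and no score, fold, p-value or signal. Its names carry no replicate, and the tag WT_Ddx5 in them is not explained by the sample labels. Bowtie2 2.3.4.1, SAMtools 1.9, MACS2 2.2.6, deepTools and GRCm38 (mm10) are named in the submitters' processing notes. The sources used here give no threshold or filters and do not say whether replicates were pooled. Starts were taken as counted from 0 and are printed counted from 1. Genes came from RefSeq GRCm38.p6, strand and start windows from RefSeq windows of that build, listed for 425 of 557 long genes. Density divides by gene length less 1 kb at each end. Genes named are the 20 with most inner peaks, the 10 densest, the 15 longest with none, leaders of each list, family members and those at the limits; others are marked, and some genes under it are not reported here. Members, lists and settings were chosen with earlier results of these data known. The counting code returned the known counts on simulated data. Alternatives were other limits of gene length, peak width and distance from the ends, merging of peaks, and peaks in other genes left out. Counting ran in Python 3.11.15 with pandas 2.3.3 and numpy 2.4.6, intervals in scipy 1.17.1, plots in matplotlib 3.10.9.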

Additional observations from a re-analysis of the deposited data

How the results depend on the processing

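No paired analysis was possible because the 1 list of peaks holds no value per library, so leaving out a replicate could not be done either. Genes of 200 kb or longer (990) gave 4935 inner peaks, 432 genes with none, 12.02% of peaks in the top 10 genes and a median of 0.316 per 100 kb; genes of 500 kb or longer (227) gave 1044, 128, 46.7% and a median width of 402 bp. The counts follow from the number of genes taken in. Peaks of at least 500 bp gave 1199 inner peaks, 19.7% in the top 10 genes, 10 or more in 19.6% of genes with and 1.98% of genes without a gene-end peak, and a median width of 1020 bp. Merging at 1000 bp gave 1463, 14.8%, 23.2%, 2.39% and 801 bp, and with no upper width, added after the data were seen, 1755, 16.5%, 28.2%, 3.19% and 1046 bp. Without merging, no upper width limit gave a median width of 469 bp and a limit of 2000 bp gave 392 bp. Inner peaks over 50 kb from both ends, also added later, gave 24.8% in the top 10 genes and 10 or more in 29.8% of genes with a gene-end peak. The number of long genes with none stayed between 274 and 322 under all settings that kept the 300 kb limit. Peaks of at least 500 bp moved all 20 of the 20 named counts by over 1.5 times, and so did merging at 1000 bp. Merging with no upper width moved 19 of them, and a distance of over 50 kb from both ends moved 2. Leaving out peaks in or beside other coding genes moved 1, Cmss1. Shares with at least 10 were higher with a gene-end peak than without under every setting run. Read depth is unknown, so a gene with no peak here is a gene with none in this list.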
